A study of Mus musculus with 6 samples.

Results

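The 10 genes described here encode enzymes of cholesterol synthesis: Hmgcs1, Mvd, Idi1, Fdps, Fdft1, Sqle, Lss, Cyp51, Nsdhl and Dhcr7. This list, and the lists of other genes used below, were drawn up with earlier results of these data known. The counts set beside shares of all genes are therefore descriptions. The genes were taken by symbol, with all probe sets (the groups of short oligonucleotides that each report on 1 transcript) carrying one of these symbols. This gave 15 probe sets of 12488 and 10 genes of 8251. Fdps had 4 probe sets, Nsdhl 3 and the others 1 each. All 10 genes were among the 4844 that were bright enough to be kept, and 8 of them lay above the floor (606 scaled units, the level below which no value was read) on every array.

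Total RNA of liver from male mice was hybridised to 6 arrays, 1 for each of 3 genotypes at 2 circadian times, in mice 8 to 10 weeks old. The groups were Clock mutant, Cry-deficient (the CT02 array of which was described as a double knockout of Cry1 and Cry2) and wild type on a C57BL/6 background, each at CT14 and at CT02. CT stands for circadian time, the hours since subjective dawn in constant conditions, so CT14 (14 h) is early subjective night and CT02 (2 h) early subjective day. The sources used here do not give the strain of the mutants, the Clock allele, or whether an array carried RNA of several mice.

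Cholesterol is made from acetyl-CoA by a chain of enzymes that first build the isoprene units of the mevalonate pathway, then join them into squalene, and then close and trim the ring to give cholesterol. Most of these genes are targets of SREBP-2, the product of Srebf2, a transcription factor held in the endoplasmic reticulum while sterol is plentiful and released when it runs short. Liver is a main site of this synthesis, and in rodents it follows a daily rhythm that is tied to feeding.

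The intensities were scaled between arrays and are given as scaled units, and a ratio is the log2 of 2 scaled values with the floor applied. Where the lower of both values was under the floor, the size of the ratio is a lower bound, written as "at least". Each group was a single array, so no difference had a replicate check and no p-value is given. A gene is counted as apart when the ratio is at least 2-fold. The share of all kept genes that pass the same rule stands beside the first count in each comparison. A rule that joins comparisons has a share only where it is printed. Levels are compared between arrays for 1 probe set and not between genes.

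The arrays differed in quality as well as in group. The 3' to 5' ratio of the Actb control probes, which is higher for degraded RNA, was 1.15 for Clock mutant CT14 and 2.68 for Clock mutant CT02, 0.86 for Cry-deficient CT14 and 1.70 for Cry-deficient CT02, 0.93 for wild-type CT14 and 0.84 for wild-type CT02. The same ratio for Gapdh was at most 0.72 on 5 arrays and 2.37 on Cry-deficient CT02. Before scaling the Clock mutant CT02 array was the dimmest (log2 offset -0.43). The probe set of the targeted gene Cry1 read 4718 and 3845 on the Cry-deficient arrays at CT14 and CT02, against 2723 and 1833 in wild type, and that of Cry2 read 1344 and 1185, against 2256 and 1215. The sources used here do not say whether these probes fall inside the deleted sequence. They therefore check nothing, and the term Cry-labelled is used below. Of 10 hepatocyte markers 8 were on the array, 6 of them above the floor on every array, with a summed level between 76777 and 103409. Markers of T cells (4 on the array) and of bile duct cells (3) lay under the floor on every array.

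Sequence upstream of the annotated start was at hand for 7 of the 10 genes, in 9 windows of 250 bases, Dhcr7 having 3 starts. The sequences are from RefSeq (build GRCm38.p6). A set of 4 is shown because their genes stood at opposite ends of the pattern described below: Hmgcs1 and Nsdhl had the largest excess of the Cry-labelled over the wild-type time ratio, and Mvd and Lss had time ratios of opposite sign and at least 2-fold in both Clock mutant and wild type. The windows are chr13:119690101-119690350 (plus strand), chrX:72918271-72918520 (plus strand), chr8:122443423-122443672 (minus strand) and chr10:76531355-76531604 (plus strand). They run 5' to 3' on the strand of the gene and end at the base before the start. Capitals mark matches to CCAAT, the box bound by NF-Y, or its complement ATTGG, and in Hmgcs1 also the match to TCACNCCAC, a form of the sterol regulatory element.
Hmgcs1: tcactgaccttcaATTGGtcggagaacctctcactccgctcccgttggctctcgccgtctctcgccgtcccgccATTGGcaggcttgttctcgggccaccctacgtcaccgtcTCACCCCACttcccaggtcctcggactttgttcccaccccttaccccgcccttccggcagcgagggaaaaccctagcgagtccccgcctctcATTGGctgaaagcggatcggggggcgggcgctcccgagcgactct
Nsdhl: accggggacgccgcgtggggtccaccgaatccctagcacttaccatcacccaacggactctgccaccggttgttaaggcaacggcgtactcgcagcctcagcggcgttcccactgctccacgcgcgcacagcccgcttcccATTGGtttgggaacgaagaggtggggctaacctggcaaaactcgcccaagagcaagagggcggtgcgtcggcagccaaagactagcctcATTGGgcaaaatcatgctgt
Mvd: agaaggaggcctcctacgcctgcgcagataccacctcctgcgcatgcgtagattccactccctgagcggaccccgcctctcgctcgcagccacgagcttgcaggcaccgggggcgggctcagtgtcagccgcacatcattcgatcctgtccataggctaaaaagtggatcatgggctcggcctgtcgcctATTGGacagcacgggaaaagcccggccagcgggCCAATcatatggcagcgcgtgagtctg
Lss: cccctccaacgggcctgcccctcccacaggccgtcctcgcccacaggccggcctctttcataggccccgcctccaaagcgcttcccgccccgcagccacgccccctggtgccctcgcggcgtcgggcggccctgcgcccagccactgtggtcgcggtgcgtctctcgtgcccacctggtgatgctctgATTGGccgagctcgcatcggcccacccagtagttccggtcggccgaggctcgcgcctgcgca

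Each of the 7 genes had a CCAAT box on either strand in at least 1 window, and 7 of the 9 windows did, against 33.8% of 32851 windows of the same length over all genes. The sterol element as spelled above was found in 1 window, that of Hmgcs1, at bases -137 to -129 from the start, and in 1.05% of all windows. GGGCGG, the GC box bound by Sp1, was found in 8 of the 9 windows and in 32.7% of all. The E-box CACGTG, to which CLOCK and its partner bind, was found in 1 window, that of the second Dhcr7 start, and in 6.02% of all. No match to one motif overlapped a match to another in these windows, and a match is a description of letters, not evidence of binding.

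**Figure D1:**
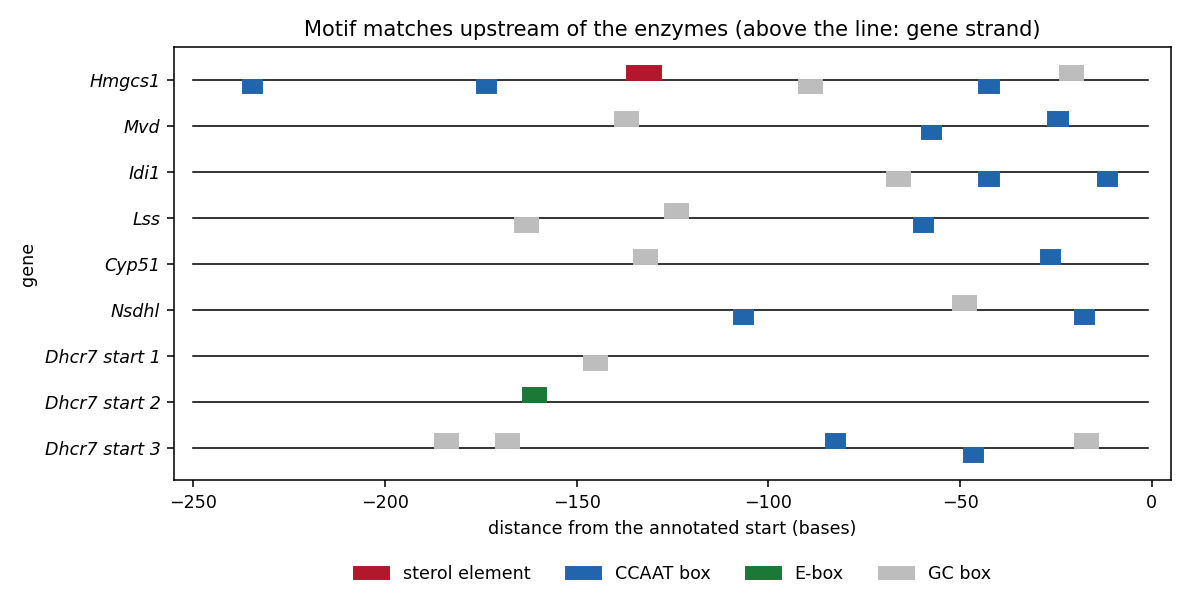
Matches to 4 motifs in the 250 bases upstream of 7 of the enzymes, with distance from the annotated start in bases on the x axis and a line per start on the y axis. Boxes above a line lie on the gene strand and boxes below it on the opposite strand. CCAAT boxes appear upstream of all 7 genes, the sterol element only upstream of Hmgcs1 and the E-box only at the second start of Dhcr7.

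Across the 6 arrays the enzymes stood highest on the Cry-labelled CT14 array. All 10 lay above their own 6-array mean there, by 0.99 to 2.51 log2 units with a median of 1.37, and 8 had their highest value of all on that array, as did 12.2% of the kept genes. The other 2 genes, Hmgcs1 and Dhcr7, were highest on the Clock mutant CT02 array, by a narrow margin over the Cry-labelled CT14 array that turned round for both with no scaling between arrays and for Hmgcs1 with quantile normalization. For 6 genes these were the 2 highest arrays, which held for 3.49% of the kept genes. At the low end, all 10 lay below their own mean on the wild-type CT02 array (median -0.80). The median of all kept genes, centred in the same way, lay between -0.0018 and 0.0114 on every array. In whole liver, fewer cells of a type and less RNA per cell cannot be told apart.

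**Figure D2:**
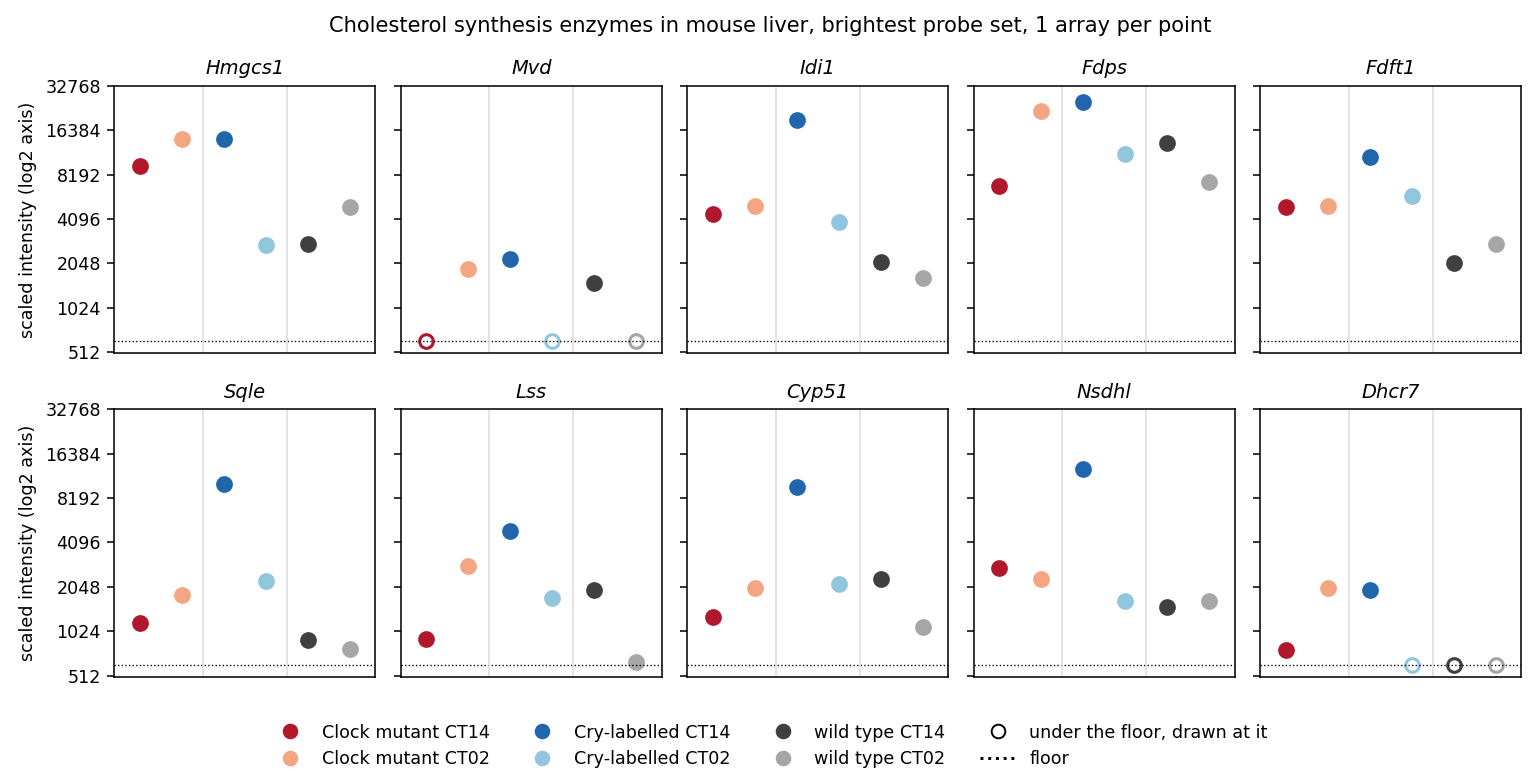
Scaled intensity (log2 axis) of the brightest probe set of each enzyme on the 6 arrays, 1 point per array, in the order Clock mutant, Cry-labelled and wild type with CT14 left of CT02. The dark blue point (Cry-labelled CT14) is the highest in 8 of 10 panels. Open circles are values under the floor of 606.

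The early, mevalonate-building enzymes did not share 1 profile. Hmgcs1, the cytosolic synthase that makes HMG-CoA, read 9399 and 14349 in the Clock mutant at CT14 and CT02, 14318 and 2721 on the Cry-labelled arrays, and 2766 and 4908 in wild type. It was therefore high on both Clock mutant arrays and on the Cry-labelled CT14 array, and low on the others, with a gap between 4908 and 9399. Mvd, the decarboxylase that yields isopentenyl diphosphate, read 594 and 1874 in the Clock mutant, 2184 and 375 on the Cry-labelled arrays, and 1505 and -1 in wild type. It lay under the floor on 3 arrays, 1 of each genotype, so most of its ratios are lower bounds.

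Idi1 and Fdps supply the units from which squalene is built. Idi1, the isomerase that makes dimethylallyl diphosphate, read 4452 and 5052 in the Clock mutant at CT14 and CT02, 19364 and 3902 on the Cry-labelled arrays, and 2097 and 1618 in wild type. Both wild-type values lay below all 4 mutant values. Fdps, the farnesyl diphosphate synthase, read 6852 and 21981 in the Clock mutant, 25308 and 11225 on the Cry-labelled arrays, and 13427 and 7328 in wild type on its brightest probe set. A second probe set, named as one shared within a sequence family, had the order 6178 and 14973, 19075 and 8295, and 9171 and 5916 for the same arrays, and the other 2 were under the floor on every array. On the Cry-labelled CT14 array the brightest Fdps probe set was at the 99.9th percentile of that array (highest value 28409).

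The squalene enzymes were lowest in wild type. Fdft1, the squalene synthase, read 4944 and 5004 in the Clock mutant at CT14 and CT02, 10795 and 5853 on the Cry-labelled arrays, and 2065 and 2761 in wild type. Sqle, the squalene epoxidase and a slow step of the sterol branch, read 1167 and 1807 in the Clock mutant, 10257 and 2249 on the Cry-labelled arrays, and 890 and 773 in wild type. As for Idi1, both wild-type values of each gene lay below all 4 mutant values. With the floor applied this held for these 3 of the 10 enzymes and for 5.14% of kept genes. Of the 8 enzymes above the floor on every array, Sqle had the widest span, 3.73 log2 units between its highest and lowest array.

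Among the enzymes that close and trim the ring, Lss and Cyp51 were high at CT14 in wild type too. Lss, the lanosterol synthase, read 906 and 2812 in the Clock mutant at CT14 and CT02, 4883 and 1728 on the Cry-labelled arrays, and 1950 and 628 in wild type. Cyp51, the lanosterol demethylase, read 1280 and 1994 in the Clock mutant, 9805 and 2152 on the Cry-labelled arrays, and 2321 and 1088 in wild type. For both genes CT14 was above CT02 on the Cry-labelled and wild-type arrays and below it in the Clock mutant.

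Nsdhl and Dhcr7 act late in the chain. Nsdhl, a dehydrogenase that helps remove methyl groups from the ring, read 2765 and 2315 in the Clock mutant at CT14 and CT02, 12901 and 1642 on the Cry-labelled arrays, and 1487 and 1649 in wild type. A single array, Cry-labelled CT14, thus stood far above the other 5. Its other 2 probe sets were also highest there, at 6167 and 4059, with the remaining arrays between 1014 and 2094 and between 759 and 3175. Dhcr7, the reductase that makes cholesterol from its immediate precursor, read 768 and 2009 in the Clock mutant, 1962 and 601 on the Cry-labelled arrays, and 549 and 478 in wild type. It was measured above the floor on 3 arrays and lay under it on the Cry-labelled CT02 array and on both wild-type arrays.

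The time contrast on the Cry-labelled arrays asked how the enzymes stood in early subjective night against early subjective day in these mice. Every one of the 10 had its higher value at CT14. The difference was at least 2-fold for 9, against 3.53% of kept genes that were 2-fold higher and 2.02% that were 2-fold lower, and the median log2 ratio was 2.02 against 0 for all kept genes. The folds were 7.86 for Nsdhl, 5.26 for Hmgcs1, 4.96 for Idi1 and 4.56 for both Sqle and Cyp51. Mvd was at least 3.60-fold and Dhcr7 at least 3.24-fold higher, Lss 2.83-fold and Fdps 2.25-fold. Fdft1 was the exception, with a ratio of 1.84-fold. On its other probe sets Nsdhl had log2 ratios of 2.32 and 1.92, against 2.97 on the brightest, and Fdps had 1.20 on its second.

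The CT02 array of this contrast had the raised Actb ratio given above. Its 10 macrophage markers, all on the array and 8 above the floor throughout, summed to 31821 at CT14 and 44847 at CT02 on the Cry-labelled arrays, against 24789 to 31211 on the Clock mutant and wild-type arrays. Of these markers 9 were lower at CT14 than at CT02 on the Cry-labelled arrays, and 1, C1qa, was higher (4869 and 1508). The hepatocyte markers summed to 84095 at CT14 and 103409 at CT02. Of the 8 on the array 7 were lower at CT14, and 1, Hnf4a, was higher (4154 and 871). The part of cell composition and RNA length in the time ratio was not tested. Without the CT02 arrays of both mutants, the Cry-labelled CT14 array stood above the mean of the Clock mutant CT14 array and both wild-type arrays by at least 2-fold for all 10 genes (1.69% of kept genes), with a median log2 ratio of 2.03 and a range of 1.41 to 3.46. That combination was chosen after the data were seen.

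In the Clock mutant the same contrast ran the other way for most of the enzymes. Of the 10, 9 were lower at CT14, 4 of them at least 2-fold, and none was 2-fold higher (3.43% of kept genes were lower and 4.31% higher). The median was -0.63. With no scaling, under which the median of all kept genes moved to 0.45, 7 were lower, 3 of them at least 2-fold (13.6% of kept genes were then 2-fold higher and 1.01% lower), and Idi1 (0.32) and Fdft1 (0.48) joined Nsdhl on the other side of 0. Fdps was 3.21-fold, Lss 3.10-fold, Mvd at least 3.09-fold and Dhcr7 2.61-fold lower. Cyp51, Sqle and Hmgcs1 had log2 ratios between -0.64 and -0.61, while Idi1 (-0.18), Fdft1 (-0.02) and Nsdhl (0.26) lay close to 0. The second probe set of Fdps had -1.28. The other 2 of Nsdhl had 0.24 and -0.37, so its sign differed between probe sets. The Clock mutant CT02 array, the dimmest and the one with the highest Actb ratio, is the baseline of all these values.

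In wild type the time ratios had a median of 0.29. At CT14 against CT02, 3 enzymes were at least 2-fold higher (2.48% of kept genes) and none 2-fold lower (2.09%). These were Lss (3.11-fold), Mvd (at least 2.48-fold) and Cyp51 (2.13-fold). Fdps had a log2 ratio of 0.87 (0.63 on its second probe set), Idi1 0.37 and Sqle 0.20. Hmgcs1 was on the other side with -0.83, as were Fdft1 (-0.42) and Nsdhl (-0.15), and Dhcr7 lay under the floor at both times. Members of 1 pathway thus had wild-type ratios on either side of 0.

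**Figure D3:**
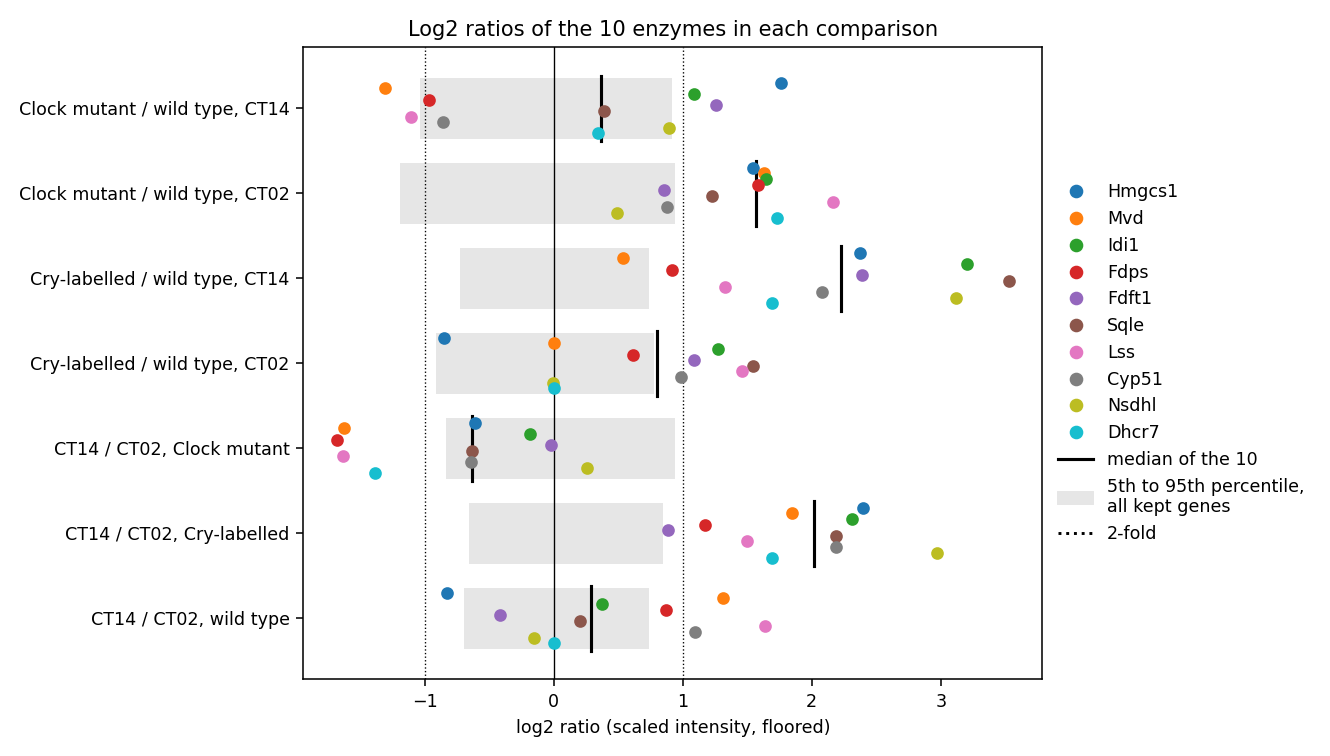
Log2 ratios of the 10 enzymes (coloured points) in 7 comparisons, with the median of the 10 (black bar), the 5th to 95th percentile of all kept genes (grey) and 2-fold (dotted lines). All 10 points are right of 0 for the Cry-labelled time contrast (median 2.02) and for both contrasts in which all members were above wild type (medians 2.23 and 1.57), although with no scaling Nsdhl lay below wild type in the Clock mutant at CT02. Values against the floor are drawn at their bound.

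The difference between the time ratios of mutant and wild type was then taken for each gene. It was read without a test, and both mutants were set against the same wild-type arrays. For the Cry-labelled arrays minus wild type the median log2 difference was 1.50, with 7 enzymes at least 2-fold apart upward (6.05% of kept genes) and none downward (4.71%). Hmgcs1 (3.22) and Nsdhl (3.12) led, followed by Sqle (1.99) and Idi1 (1.94), whereas Lss (-0.14) and Fdps (0.30) lay near 0. The count includes Dhcr7 (1.69), whose wild-type values were both under the floor, so its difference has no settled size.

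For the Clock mutant minus wild type the median difference was -1.11, with 5 enzymes at least 2-fold apart downward (6.05% of kept genes) and none upward (7.16%). Lss (-3.27), Mvd (-2.94 or beyond), Fdps (-2.56) and Cyp51 (-1.73) were the furthest, and Dhcr7 (-1.39) again rests on floor values in wild type. Hmgcs1 (0.22), Fdft1 (0.40) and Nsdhl (0.41) were on the other side of 0. Cyp51 (1.09 in the Cry-labelled mice and -1.73 in the Clock mutant) was past 2-fold in both differences. So was Dhcr7 (1.69 and -1.39, on floor values in wild type). No share of kept genes was taken for this joint rule, and the leading genes of each difference were picked by sorting. Which genes the differences share is therefore only listed.

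Set against wild type at the same time, the Cry-labelled liver had higher levels of all 10 enzymes at CT14, by 2-fold or more for 8 of them (2.46% of kept genes were higher and 2.27% lower), with a median of 2.23. Sqle was 11.5-fold, Idi1 9.23-fold and Nsdhl 8.68-fold higher, Fdft1 5.23-fold, Hmgcs1 5.18-fold, Cyp51 4.23-fold, Dhcr7 at least 3.24-fold and Lss 2.50-fold. Fdps (log2 ratio 0.91, 1.06 on its second probe set) and Mvd (0.54) lay under 2-fold. This contrast shares the CT14 array with the Cry-labelled time contrast, and 7 enzymes passed 2-fold upward in both, as did 0.702% of kept genes.

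At CT02 the Cry-labelled liver differed less from wild type. There 4 enzymes were at least 2-fold higher (2.73% of kept genes) and none 2-fold lower (3.96%), with a median of 0.80. Sqle was 2.91-fold, Lss 2.75-fold, Idi1 2.41-fold and Fdft1 2.12-fold higher, and Cyp51 was just under the threshold at 1.98-fold. Hmgcs1 had a log2 ratio of -0.85 and Nsdhl one of -0.01, whose sign turned with the scaling, while Mvd and Dhcr7 were under the floor on both arrays.

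The Clock mutant stood further above wild type at CT02. At that time all 10 enzymes were above wild type, 7 of them at least 2-fold (4.25% of kept genes were higher and 7.51% lower), with a median of 1.57. Lss was 4.48-fold, Dhcr7 at least 3.31-fold, Idi1 3.12-fold, Mvd at least 3.09-fold, Hmgcs1 2.92-fold and Sqle 2.34-fold higher, and Fdps had a log2 ratio of 1.58. With no scaling, under which all kept genes had a median of -0.52, 9 of the 10 were above wild type and 5 at least 2-fold (1.19% of kept genes were then higher and 20.0% lower), with Nsdhl at a log2 ratio of -0.06, Hmgcs1 at 0.99 and Sqle at 0.67. Cyp51 (0.87), Fdft1 (0.86) and Nsdhl (0.49) were under 2-fold, and the third Nsdhl probe set gave 1.53. The 5 neutrophil markers, 3 of them under the floor throughout and 1 above it throughout, summed to 6892 on this Clock mutant array and 2695 on the wild-type one. Most of each sum was a single gene, Camp (5409 and 1928), so the sums do not describe 5 markers. The part of neutrophils was not tested.

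At CT14 the enzymes of the Clock mutant split. Hmgcs1 was 3.40-fold, Fdft1 2.39-fold and Idi1 2.12-fold above wild type (3 genes, against 4.13% of kept genes), and Mvd (at least 2.48-fold) and Lss (2.15-fold) were below it (2 genes, against 5.64%). The median was 0.37. Fdps (-0.97), Cyp51 (-0.86) and Nsdhl (0.90) were just under the threshold on their brightest probe sets, while the other 2 probe sets of Nsdhl were past it (1.05 and 1.70) and the second of Fdps had -0.57. Hmgcs1 and Idi1 were thus at least 2-fold above wild type at both times in the Clock mutant. Mvd and Lss were above wild type at CT02 and below it at CT14. No share of kept genes was taken for these joint rules.

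The time ratios of Clock mutant and Cry-labelled mice were opposite and past 2-fold for 4 enzymes, Fdps, Lss, Mvd and Dhcr7, lower at CT14 in the Clock mutant and higher at CT14 on the Cry-labelled arrays, which held for 0.206% of kept genes. These 2 contrasts share no array. The difference itself was not tested, with 1 array in each group.

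The rest of the synthesis pathway had smaller median ratios, though not every gene in it did. On the Cry-labelled array at CT14, Msmo1 had a log2 ratio to wild type of 2.31, against a median of 2.23 for the 10 enzymes. Of 11 other cholesterol synthesis genes listed, 7 were measured: Mvk, Tm7sf2, Lbr, Msmo1, Hsd17b7, Ebp and Sc5d. On the Cry-labelled arrays these 7 each had the higher value at CT14, with 2 past 2-fold and a median log2 ratio of 0.49. Msmo1, the sterol methyl oxidase that acts with Nsdhl, read 14261 and 5318 at CT14 and CT02 there, 4318 and 4918 in Clock mutant liver and 2869 and 2268 in wild type, and was 2.68-fold higher at CT14. Hsd17b7, the sterol ketoreductase of the same step, was at least 2.13-fold higher (1292 and 511). It lay under the floor on 4 arrays, among them Cry-labelled CT02 and wild-type CT14 (589). Its ratios from the Cry-labelled CT14 array to those arrays therefore rest on floor values. Sc5d, a sterol desaturase, had 0.97 (0.80 on its other probe set), Mvk, the mevalonate kinase, 0.49, Ebp, a sterol isomerase, 0.23, Lbr 0.23 and Tm7sf2 0.07, the last pair being sterol reductases. The other Tm7sf2 probe set differed, with 0.38 in this contrast and 0.96 against wild type at CT14 (0.01 on the brightest). Between the times in the Clock mutant it had 0.89 (-0.42 on the brightest). Against wild type at CT14 all 7 were higher on the Cry-labelled array, with a median of 0.71 and 2 past 2-fold, Msmo1 4.97-fold and Hsd17b7 at least 2.13-fold. In the Clock mutant none of the 7 passed 2-fold between the times (median -0.29, or 0.12 with no scaling), nor in wild type (median 0.04). Against wild type in the Clock mutant, Msmo1 was 2.17-fold higher at CT02 (under 2-fold with no scaling) and Sc5d 2.44-fold lower at CT14 (log2 ratio -1.29, but -0.42 on its other probe set), the only ones past 2-fold.

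**Figure D4:**
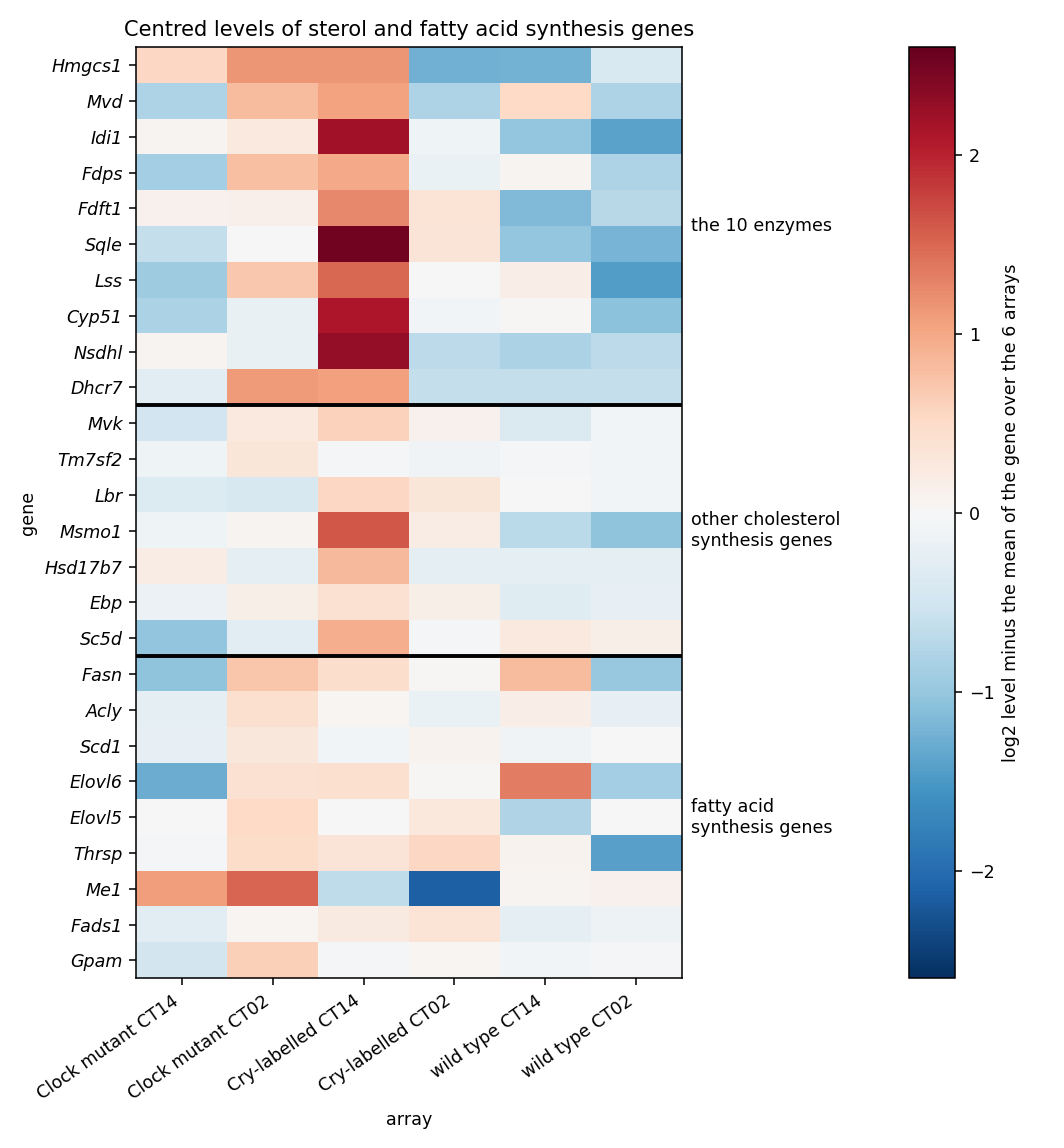
Log2 level (floor applied) of each gene minus its own mean over the 6 arrays, for the 10 enzymes, 7 other cholesterol synthesis genes and 9 fatty acid synthesis genes (rows) on the 6 arrays (columns). The red column of the Cry-labelled CT14 array runs through all 10 enzymes, of which Fdps is the lowest there (0.99). Of the other synthesis genes it is strong in Msmo1, near Fdps in Sc5d (0.94) and Hsd17b7 (0.84), and paler or absent in the rest. In the fatty acid genes it is pale or absent, with Me1 below its mean (-0.66). Their median time ratio on the Cry-labelled arrays was -0.09.

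The few regulators of sterol synthesis that could be read, and the sterol uptake genes, had small ratios. Of 7 regulators listed, 3 were on the array and 2 were kept. Srebf2, the gene of SREBP-2, was not among these 3, so its level is not known here. Srebf1, which encodes SREBP-1, read 14747 and 19696 in the Clock mutant at CT14 and CT02, 11820 and 9688 on the Cry-labelled arrays, and 19770 and 15369 in wild type, and had no ratio past 2-fold. Mbtps1, the protease that first cuts SREBP, stayed between 3416 and 4114, and Insig1, which retains SREBP in the endoplasmic reticulum, was under the floor on every array. Of 8 uptake and handling genes listed 5 were kept, and none was 2-fold apart in any of the 7 comparisons. Tmem97, a sterol-responsive membrane protein gene, was highest on the Cry-labelled CT14 array (16439, against 10410 at CT02, 7971 and 8225 in Clock mutant liver and 11332 and 7853 in wild type). Scarb1, the HDL receptor gene, had a log2 ratio of 0.49 between the times on the Cry-labelled arrays, the lysosomal export genes Npc1 and Npc2 0.28 and -0.24, and the lipoprotein receptor gene Lrp1 0.12.

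The fatty acid synthesis genes had median ratios near those of the enzymes in the Clock mutant time contrasts and smaller medians on the Cry-labelled arrays. In the Cry-labelled time contrast the 9 genes had a median of -0.09 (0.01 to 0.11 under the other scalings), against 2.02 for the 10 enzymes. Me1 (malic enzyme, at least 2.76-fold higher, 1675 and 420) was the only one past 2-fold. Against wild type the Cry-labelled median was 0.01 at CT14 and 0.26 at CT02. At CT02 Thrsp was 3.85-fold and Fasn 2.03-fold higher, and Me1 at least 4.68-fold lower. The Cry-labelled minus wild-type time difference had a median of -0.10. There Elovl6 (-1.85), Thrsp (-1.70) and Fasn (-1.38) were past 2-fold downward and Me1 (at least 1.50) upward. In the Clock mutant the 9 were all lower at CT14 (7 of them with no scaling), with a median of -0.52 against -0.63 for the 10 enzymes, and 3 were at least 2-fold lower: Fasn, the fatty acid synthase (3.44-fold), Elovl6, an elongase (3.23-fold), and Gpam, which starts triglyceride synthesis (2.14-fold). Against wild type the 9 were all higher in the Clock mutant at CT02 (6 with no scaling). The median there was 0.67 against 1.57 for the enzymes, with 4 genes past 2-fold, and at CT14 the median was -0.14 against 0.37. The Clock mutant minus wild-type time difference had a median of -1.05 with 5 genes at least 2-fold apart downward, against -1.11 and 5 for the enzymes. Fasn and Elovl6 also shared with Lss and Mvd a higher level at CT14 in wild type (3.49-fold and 4.66-fold). Of 8 sterol disposal genes kept, none was 2-fold apart between the times on the Cry-labelled arrays (median 0.05), where Cyp7a1, whose enzyme starts the conversion of cholesterol to bile acids, read 2901 and 2185. Of the isoprenoid side branch 3 genes were kept, and Rabggta, a subunit of a prenyl transferase for Rab proteins, was 3.94-fold higher at CT14 on the Cry-labelled arrays (3881 and 986), with a log2 ratio of -0.14 for Rabggtb, the partner subunit. Of 6 ketogenesis genes listed 2 were kept, and neither was 2-fold apart there (median -0.23).

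Among themselves the enzymes followed a common profile to different degrees. Over the 6 arrays, which are few and share 1 scaling, Pearson's r of each gene with the mean of the other 9 was 0.94 for Idi1, 0.91 for Sqle, between 0.79 and 0.88 for Fdps, Fdft1, Lss, Cyp51, Nsdhl and Dhcr7, 0.71 for Mvd and 0.64 for Hmgcs1, as a description with no test. Of 1180 genes above the floor on every array and at least 2-fold between their highest and lowest array, 3 outside the 10 had r of at least 0.9 with the mean profile of the 10. These were Msmo1 (0.94), the kinase gene Pdpk1 (0.94) and the retinol dehydrogenase gene Rdh11 (0.93). Rdh11 read 6766 and 7361 in the Clock mutant, 11108 and 4729 on the Cry-labelled arrays, and 4126 and 3933 in wild type. The next 7 by this measure were Igtp, Cars, Vegfb, Cyp17a1, Chaf1b, Timd2 and Rnf26, with r between 0.81 and 0.87.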

How the data were processed

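Liver RNA was measured on 6 one-colour arrays with 12488 probe sets, 66 of them controls, and samples were grouped by their titles. The intensities deposited by the authors are whole numbers, positive and negative, as the values themselves show; no source used here gives the software, the background step or any scaling. Each array was divided by its median ratio to the geometric mean of the 6 arrays (6065 bright probe sets). Log2 was taken after raising values under the pooled median (606 scaled units) to it, as the floor, and genes whose mean reached the floor were kept. On an array 4.75% to 8.05% of kept genes lay at the floor, and precision is limited by having 1 array per group.

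Probe sets were named from the platform annotation, and the symbols were checked through their gene numbers in RefSeq (GRCm38.p6). Of them 10855 had 1 symbol, and the 396 with several and 1237 with none were not used. In that lookup 10839 matched and 0 symbols changed. The brightest probe set stood for its gene. Mutant was compared with wild type at each time and CT14 with CT02 in each genotype, 7 comparisons, plus 2 differences of time ratios. An additive fit of genotype and time would leave residual degrees of freedom but takes the differences of interest as its error, so no test was made.

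The named genes are the 10 enzymes, the listed synthesis, regulation and uptake genes, up to 4 of the largest ratios in other lists, and the 10 closest profiles. The members and lists were chosen with earlier results of these data known. The scaling and the ratios of bright probe sets were tested on simulated data. Values near the floor, the filter and the choice of probe set were not. Alternatives were the scaling (as deposited, quantile, lowess with span 0.3), the floor, the filter, the probe set rule, a 3-fold threshold and scaling without a CT02 array. Python 3.11.15, numpy 2.4.6, pandas 2.3.3 and statsmodels 0.14.6 were used.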

Additional observations from a re-analysis of the deposited data

Results flagged for a closer look

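The time ratio (CT14 over CT02) had opposite signs past 2-fold in Clock mutant and Cry-labelled liver for Mvd (log2 ratio -1.63 and 1.85), Fdps (-1.68 and 1.17), Lss (-1.63 and 1.5) and Dhcr7 (-1.39 and 1.69). Clock mutant and wild type had opposite time ratios for Mvd (-1.63 and 1.31) and Lss (-1.63 and 1.64). For the same genes the Clock mutant was below wild type at CT14 and above it at CT02, with ratios of -1.31 and 1.63 for Mvd and -1.11 and 2.16 for Lss. The difference between the effects was not tested, as each group is 1 array, and the ratios of Mvd are lower bounds. The values of Mvd and Lss in these last comparisons come from the same 4 arrays, read as a difference between times or between genotypes. No share of kept genes was taken for either reading.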

How the results depend on the processing

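Over the 9 comparisons and 11 alternatives, 1 of them (leaving out probe sets whose names carry a letter) chosen after seeing the data, the median of the enzymes moved by less than 1.5-fold in all 81 cases that could move it (a 3-fold threshold and no filter cannot), as did 169 of the 180 counts of enzymes past the threshold that could. The Cry-labelled time median lay between 1.98 and 2.22, that against wild type at CT14 between 2.22 and 2.39, the Clock mutant time median between -0.72 and -0.14, and that of Clock mutant against wild type at CT02 between 1.01 and 1.58. With the filter at the 75th percentile, which keeps fewer of the enzymes, the counts were 1 higher in the wild-type time contrast, 1 lower in the Clock mutant time contrast, 4 higher for Clock mutant against wild type at CT02 and 0 lower at CT14, and 2 lower in the Clock mutant minus wild-type time difference. At 3-fold, 1 of the 10 was higher in the wild-type time contrast (0.599% of kept genes). For Clock mutant against wild type 4 were higher at CT02 (1.03%), and 1 was higher (1.01%) and 0 lower (1.42%) at CT14. For Cry-labelled over wild type at CT02, 0 were higher (0.888%). With the floor at the 25th percentile, Mvd added 1 lower gene to the Cry-labelled minus wild-type time difference (log2 difference -3.17), since its wild-type CT02 value is -1, and put its wild-type time ratio at 5.71. Averaging the 4 Fdps probe sets, of which 2 are under the floor, put Fdps under 2-fold in the Clock mutant time contrast (-0.74) and in the Cry-labelled one (0.59). On the values as deposited Dhcr7 was at -0.89 in the Clock mutant time contrast and Fdft1 at 1.09 in the Cry-labelled one, and with quantile normalization Cyp51 (Cry-labelled against wild type at CT02) and Fdps (at CT14) were at 1.01 each. Leaving out the case with no filter, 828 ratios of single enzymes kept their side of the threshold and their size to within 1.5-fold, and 45 did not. No ratio past 2-fold of the 10 enzymes changed its sign. Of those under 2-fold, the sign changed on the values as deposited for Idi1 (0.32) and Fdft1 (0.48) in the Clock mutant time contrast, Nsdhl in Clock mutant against wild type at CT02 (-0.06) and Lss in the Cry-labelled minus wild-type difference (0.04), with the lower floor for Mvd in that difference, and under 4 alternatives for Nsdhl in Cry-labelled against wild type at CT02 (0.01 to 0.08). Averaging probe sets put Nsdhl at 1.21 in Clock mutant against wild type at CT14. Signal over background limits Mvd and Dhcr7.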
